A study of Rattus norvegicus with 12 samples.

Results

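The genes described here are 203 genes whose RNA was low in the 1-day lung libraries numbered 3, in both pretreatment arms, relative to the other libraries of the same group. The starting point was 8379 genes whose mean over 12 libraries reached 10 CPM (counts per 1e+06 counts of the library), out of 32623 genes listed. A gene was a member when, on the scale of log2(CPM + 1), library number 3 lay at least 1 below the mean of libraries 1 and 2 in PBS on day 1 and likewise in NEO on day 1. The members were thus chosen on measured values, and the size of that drop is a description with no test.

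The RNA was that of fluorescently labelled T cells that react to MBP, the myelin basic protein, and that were sorted from the lungs of wild type LEW/Crl rats aged 6 to 8 weeks. Every rat had received an intratracheal pretreatment of 7 days, with PBS (phosphate-buffered saline) as the control or with NEO, an antibiotic by the study's aim. MBP was then given by the same route, with sorting on day 0 or 1 of that immunization, so that PBS day 0, NEO day 0, PBS day 1 and NEO day 1 each had 3 libraries. How the T cells carried their fluorescent label is not given in the sources used here. The labels give each group lungs numbered 1 to 3 and do not say whether a lung is 1 animal, or whether a number marks anything that the groups share. P-values therefore measure the spread between these libraries, which may be technical.

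MBP is a protein of the myelin sheath, and T cells that recognise it can cause a paralytic inflammation of the nervous system in Lewis rats when they become activated and migrate. The lung is one of the organs in which such cells can be activated on their way to the nervous system. Sorting by a fluorescent label enriches the wanted cells, and RNA of a sorted population measures all cells that passed the gate together. In such bulk libraries fewer cells of a type and less RNA per cell cannot be told apart.

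The genes are known here by Ensembl identifiers only, and 0 of these matched the gene table used. Neither the members nor the T cells of the label were therefore checked against cell type markers, and which cell type the members mark was not tested. At most 4 identifiers are given as examples, and other members are described by their rank or as a group.

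Library totals ran from 7776335 to 16636349 counts, so that a gene with no count could hold up to 3 counts, or 0.18 to 0.386 CPM. The day 1 libraries numbered 3 were not shallow, with 15474167 counts in PBS and 12741142 in NEO. No 2 libraries agreed within sampling noise. The closest were PBS and NEO day 0 number 2, with a chi-square of 3.87 per degree of freedom. NEO day 0 replicate 1 stands apart from the other day 0 libraries in these data, and some of the main values that rest on it are also given without it.

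The drop was shared by both arms nearly gene for gene. In PBS, 209 genes lay at least 1 lower in library number 3 (2.49% of the 8379), and in NEO 276 did (3.29%). The overlap, the 203 members (2.42%), was 97.1% of the PBS list and 73.6% of the NEO list. The 2 lists come from different libraries but are not independent. Deviations from the group mean correlated between the day 1 libraries numbered 3 of the arms (r = 0.746 across genes tested, 0.684 without the members). In the other direction 6 genes lay at least 1 higher in number 3 in PBS and 4 in NEO, with 0 in both. Of the 73 genes that were low in NEO only, 67 also lay below 0 in PBS, with a median difference of -0.63. All 6 genes low in PBS only lay below 0 in NEO (median -0.78). Only 1 gene was low in one arm and high in the other.

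**Figure D1:**
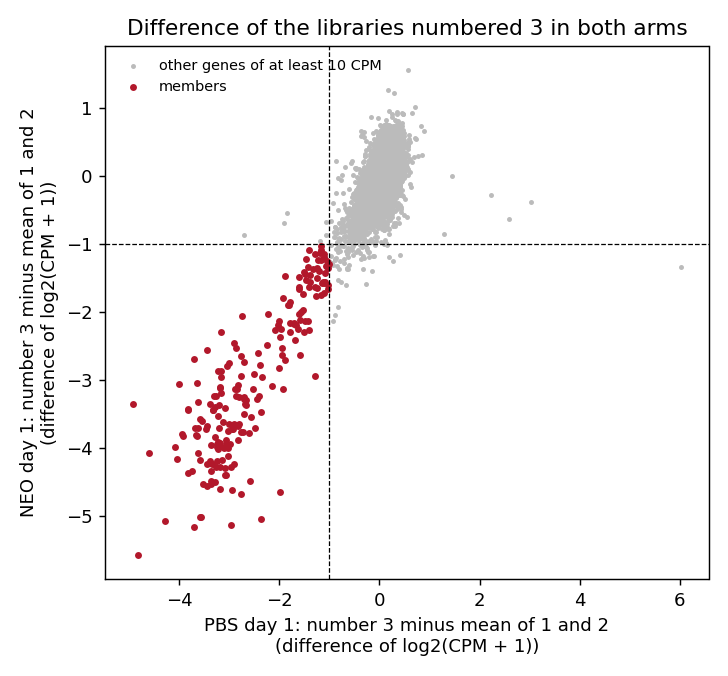
Each point is 1 of the 8379 genes, placed by the difference between library number 3 and the mean of libraries 1 and 2 on day 1, in PBS (horizontal axis) and in NEO (vertical axis), in log2(CPM + 1). The 203 members (red) fill the corner below both dashed lines at -1 and reach -4.93 in PBS and -5.58 in NEO, while the other genes (grey) gather around 0.

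The drop was deep for most members. Its median was -2.76 in PBS, a 6.75-fold lower value of CPM + 1, and -3.14 in NEO, 8.80-fold lower, where the medians of all 8379 genes were 0.05 and 0.02. At least 2 lower were 133 members in PBS and 155 in NEO, and at least 3 lower were 82 and 111. By the smaller of its 2 drops, 43 members lay between 1 and 1.5, 27 between 1.5 and 2, 18 between 2 and 2.5, 41 between 2.5 and 3 and 53 between 3 and 3.5. The members thus held a shallow and a deep part with fewer genes between them. Just inside the threshold were smaller drops of 1.02, 1.02 and 1.02, and just outside it 0.9995, 0.987 and 0.968. Across the members, which share the 6 day 1 libraries and are not independent, the PBS and NEO drops correlated at r = 0.84 (Spearman's rho = 0.80). Over all 8379 genes the same correlation was r = 0.86 (rho = 0.54), and the members were chosen on both drops, so it is no trait of theirs.

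The members were mostly genes of middle to low level. Their mean over the 12 libraries had a median of 25.9 CPM and ran from 10.1 to 620.7, against a median of 53.6 CPM for all 8379 genes. Only 15 members had a mean of at least 100 CPM, and the 10 with the highest means held 34.7% of the members' summed CPM. Counts were enough to follow them in the low libraries, where 3 of the 203 members had under 10 counts in PBS day 1 number 3 and 9 in NEO day 1 number 3.

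Together the members took up little of the RNA in any library, and their part varied most on day 1. In PBS day 1 they held 1.33% of the counts in library 1, 1.85% in library 2 and 0.309% in library 3. In NEO day 1 the shares were 1.78%, 2.43% and 0.31%. The libraries numbered 3 of the 2 arms thus ended at nearly the same low level, under every day 0 library, while the other 4 day 1 libraries lay above every day 0 library. On day 0 the share was 0.666%, 0.601% and 0.714% in the PBS libraries and 0.716%, 0.404% and 0.43% in the NEO libraries. Wilson intervals (95%) of these shares reach at most 0.0093 percentage points to either side and cover counting error only. The group means were 0.66% ± 0.0565 in PBS day 0, 0.517% ± 0.173 in NEO day 0 (0.417% ± 0.0181 without replicate 1, n = 2), 1.16% ± 0.782 in PBS day 1 and 1.51% ± 1.09 in NEO day 1 (SD, n = 3). Libraries of day 1 therefore lay on both sides of those of day 0 in each arm, with number 3 alone below.

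**Figure D2:**
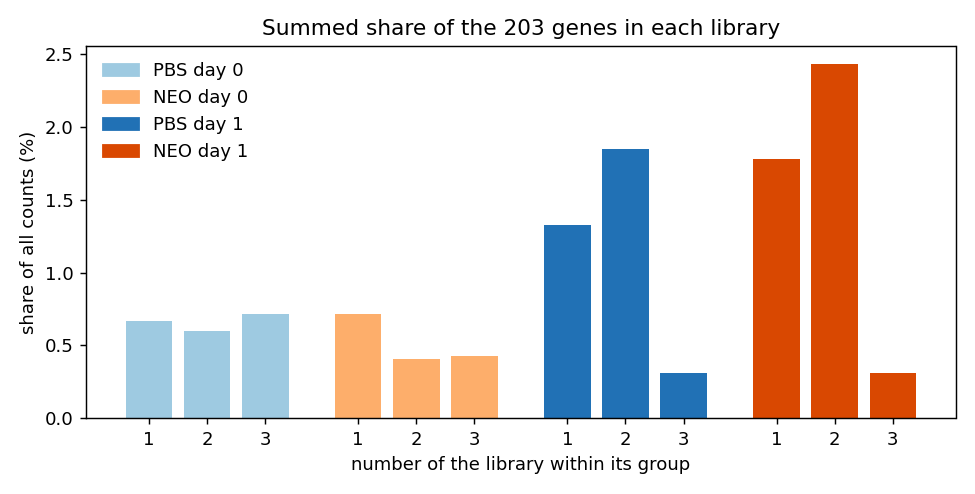
Bars give the share of all counts (%) that the 203 members took in each of the 12 libraries, by group and library number, with no error bar because each bar is 1 library. Library 3 of PBS day 1 (0.309%) and of NEO day 1 (0.31%) are the lowest bars, and library 2 of NEO day 1 (2.43%) is the highest.

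The member with the highest mean illustrates the shallow part. It was at 502, 513 and 564 CPM in PBS day 0 and at 623, 417 and 399 CPM in NEO day 0. On day 1 it was at 729, 786 and 310 CPM in PBS and at 922, 1328 and 355 CPM in NEO. Library 3 was thus below all day 0 libraries of the arm, and libraries 1 and 2 above them. The member with the next highest mean shows the deep part, with 691, 1086 and 87.7 CPM in PBS day 1 and 951, 1759 and 56.2 CPM in NEO day 1. On day 0 it was at 506, 364 and 622 CPM in PBS and 444, 138 and 186 CPM in NEO, and its libraries numbered 3 were below all day 0 libraries of the arm. Both were picked by rank after their values were seen.

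By the smaller of the 2 drops, the members that dropped most were ENSRNOG00000043451 and ENSRNOG00000030021. Within a single arm other members were lower than ENSRNOG00000030021. ENSRNOG00000043451 was at 67.6, 78.8 and 1.62 CPM in PBS day 1 and at 99.0, 65.7 and 0.706 CPM in NEO day 1. It differed widely between day 0 libraries too, with 1.01, 17.9 and 0.481 CPM in PBS and 0.206, 0.881 and 15.2 CPM in NEO, where the high libraries were numbers 2 and 3. Day 0 was therefore not uniform for this gene in either arm. ENSRNOG00000030021 was at 57.2, 91.2 and 2.78 CPM in PBS day 1 and at 79.2, 192 and 2.67 CPM in NEO day 1. On day 0 it was at 45.6, 36.0 and 47.3 CPM in PBS and at 13.4, 6.83 and 18.4 CPM in NEO. The PBS day 0 values were all above the NEO ones, and both libraries numbered 3 of day 1 were below all of day 0.

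Reading the day 1 libraries one by one against day 0 showed where day 0 lay within the gap. In PBS, libraries 1 and 2 of day 1 both exceeded the highest day 0 library for 168 of the 203 members, where this held for 35.1% of the 8379 genes. In NEO this held for 170 members (background 19.7%), and in both arms together for 150 (background 16.3%). Library 3 lay below the lowest day 0 library for 139 members in PBS (background 40.3%), for 81 in NEO (background 30.6%) and for 80 in both arms (background 25.8%). It exceeded the highest day 0 library for 32 members in PBS (background 43.5%) and 28 in NEO (background 32.3%). Both at once, libraries 1 and 2 above day 0 and library 3 below it, held for 105 members in PBS, 61 in NEO and 51 in both arms, so that most members did not lie on both sides of day 0 in NEO or in both arms together. The NEO day 0 range and mean include replicate 1, which held the lowest day 0 value for 65 members and the highest for 91. They were not computed without it here, so the NEO counts and their difference from the PBS counts may rest on that library. Among all 8379 genes the numbers on both sides of day 0 were 158 in PBS, 125 in NEO and 59 in both arms. The choice of the members favours a low number 3 and high numbers 1 and 2, so these counts are a description. Against the day 0 mean of the arm, the median member was 1.57 higher in PBS libraries 1 and 2 and 2.65 higher in those of NEO. In library 3 its difference from day 0 was -0.87 in PBS and -0.49 in NEO. Below 1 CPM in all 6 day 0 libraries were 2 members (0.985%), which were the only 2 such genes among the 8379 (0.0239%). Such a gene can reach a mean of 10 CPM only through the day 1 libraries, so these shares are a description too.

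**Figure D3:**
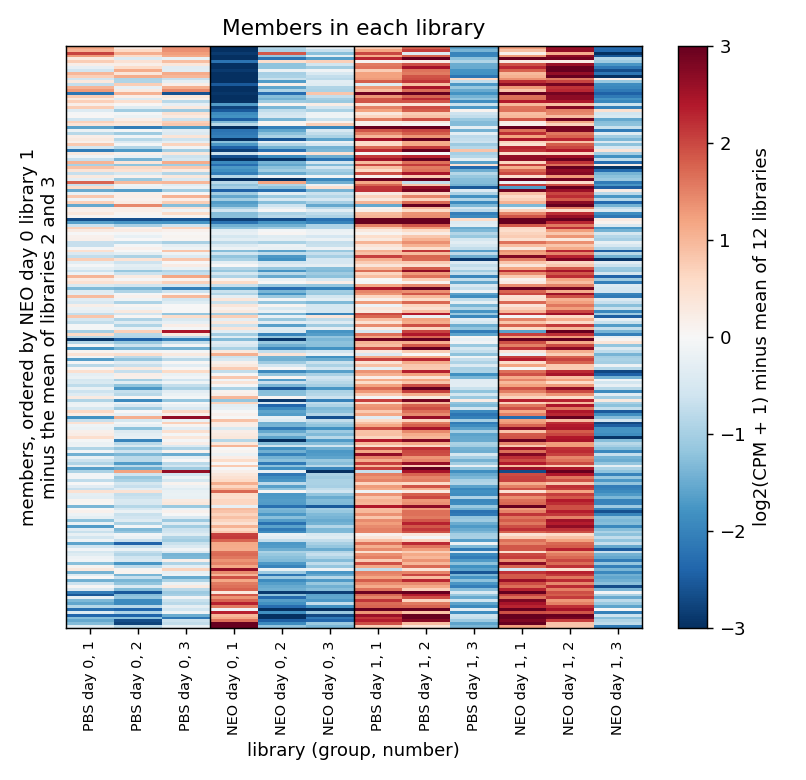
Rows are the 203 members and columns the 12 libraries by group and number, and colour gives log2(CPM + 1) minus the gene's mean over the 12 libraries, with colours saturated beyond -3 and 3. Rows are ordered by the difference of NEO day 0 library 1 from libraries 2 and 3. Libraries 1 and 2 of both day 1 groups are mostly red and library 3 mostly blue, and NEO day 0 library 1 runs from blue at the top to red at the bottom.

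Between the libraries that were high, the members were not at 1 common ratio. In PBS day 1, library 2 exceeded library 1 for 173 members (median difference 0.42, interquartile range 0.16 to 0.67), and in NEO day 1 for 125 members (median 0.26, interquartile range -0.21 to 0.77). Number by number, NEO exceeded PBS on day 1 for 176 members in library 1 (median 0.37) and for 139 in library 2 (median 0.38). In library 3 it did so for 81 members (median -0.10), with an interquartile range of -0.42 to 0.15. The medians of all 8379 genes in these 5 comparisons lay between -0.01 and 0.02.

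Whether the libraries numbered 3 were also low on day 0 was asked with the day 0 libraries, which entered the choice only through the mean level. The labels do not link numbers across days, so these values are no baseline of the day 1 lungs. In PBS day 0 library 3 was not lower. The median member was 0.20 higher in library 3 than in libraries 1 and 2, and 4 members were at least 1 lower (background 0.0955%) and 8 at least 1 higher (background 0.155%). These 4 and 8 members stood among only 8 and 13 such genes in all. In NEO day 0 the median was -0.31, with 38 members at least 1 lower (background 2.53%) and 29 at least 1 higher (background 2.55%). These NEO values rest on replicate 1. Against library 2 alone, the median of NEO library 3 was 0.23, with 5 members at least 1 lower (0.274% of all genes) and 12 at least 1 higher (0.358%). The median SD of a member's log2 CPM within a group was 0.35 in PBS day 0 and 1.06 in NEO day 0, where the medians of all 12449 genes tested were 0.13 and 0.30. Without replicate 1 the NEO day 0 medians were 0.34 for members and 0.15 for all genes tested. On day 1, where the choice itself asks for a wide spread, it was 1.79 in PBS and 2.01 in NEO.

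Replicate 1 of NEO day 0 split the members. Its difference from replicates 2 and 3 ran from a lower quartile of -0.58 to an upper quartile of 1.94 among members, and from -0.23 to 0.40 among all 8379 genes. At least 2-fold higher in it were 93 members (background 6.07%) and at least 2-fold lower 35 (background 5.01%), which left 75 between. It held the highest day 0 value for 91 members (background 43.3%) and the lowest for 65 (background 30.8%), shares close to those of all genes, so the members differed in the size rather than the frequency of the shift. The 3 subsets below were formed on these NEO day 0 values, and nothing is tested on them.

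The 93 members that were high in that library had a median of 27.3 CPM there, against 3.82 and 5.76 CPM in NEO day 0 replicates 2 and 3. In PBS day 0 their medians were 10.8, 7.98 and 12.2 CPM. On day 1 they stood at 36.9, 47.5 and 5.30 CPM in PBS and at 52.2, 55.4 and 5.02 CPM in NEO, so this library lay between the other day 0 libraries and the high day 1 libraries. The 35 members that were low in it had a median of 0.722 CPM there, against 9.32 and 11.97 CPM in replicates 2 and 3. They stood at 29.1, 21.7 and 30.5 CPM in PBS day 0, at 49.8, 77.4 and 7.82 CPM in PBS day 1 and at 54.1, 96.4 and 5.96 CPM in NEO day 1. At the median of these 35 genes the library was thus lower than both libraries numbered 3 of day 1. The day 1 drop was similar in both subsets, with medians of -2.91 in PBS and -3.28 in NEO for the 93, and -2.90 and -3.80 for the 35. For the 75 between, the medians were -2.004 and -2.56. The opposite directions in this 1 day 0 library follow from how the subsets were formed. The day 1 drop, which the choice of the members asks for, was present in both.

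**Figure D4:**
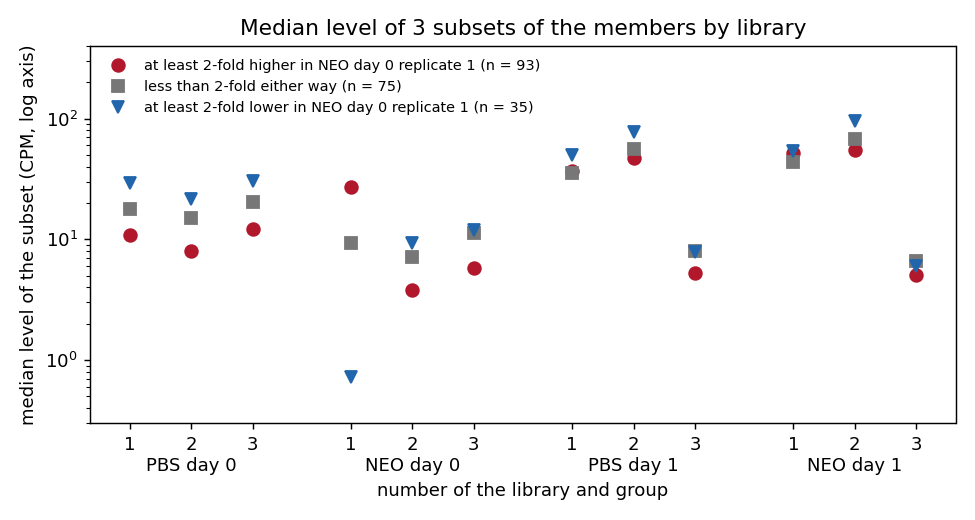
Points give the median level (CPM, log axis) of 3 subsets of the members in each library, formed by at least 2-fold differences of NEO day 0 replicate 1 from replicates 2 and 3, with no error bars. The red points (the 93) lie below or level with the blue ones (the 35) in all other libraries. In NEO day 0 library 1, on which the subsets were formed, the order is turned, with 27.3 against 0.722 CPM.

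The day effect compared group means of day 1 and day 0 in a fit of all libraries (edgeR's quasi-likelihood test, Benjamini-Hochberg adjusted over all 12449 genes tested, called under 0.05). All 203 members passed the filter on low counts. The day 1 libraries are those on which the members were chosen, with numbers 1 and 2 high, and a gene high on day 1 only could reach the mean level. The counts and fold changes of members below are therefore a description, which supports no direction of the members. The gap between day 1 libraries also enters the error. The median standard error of the log2 fold change was 0.97 among members in PBS and 1.00 in NEO, where the medians of all genes tested were 0.197 and 0.198. All day 1 libraries came after MBP and none without it was taken on that day, so the effects of MBP, of instillation and of time cannot be told apart.

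In PBS, 33 members were called higher on day 1 than on day 0 and 0 lower. The background was 12.2% of genes rising and 13.5% falling, 25.7% in either direction, and the 33 are 16.3% of the members. The median log2 fold change was 1.16 over all members and 0.00 over all genes tested, and 171 members had a positive value. The 33 called had a median of 3.22. The median over all members was 0.63 without PBS day 1 replicate 2 and 0.69 with the replicate number as a block over all libraries. The count was 12, 10 and 12 when PBS day 0 replicate 1, 2 or 3 was left out (5.91%, 4.93% and 5.91% of members, against 7.02%, 6.98% and 7.66% of genes rising). It was 15 and 13 when PBS day 1 replicate 1 or 2 was left out (7.39% and 6.40%, against 8.36% and 8.32%). In these 5 fits the share of members was under that of all genes. The count was 58 (56 up, 2 down) when the PBS libraries were fitted alone (27.7% of members up, against 21.2% of genes). It was 91 without both libraries numbered 3 (44.8%, against 11%), a gain to which the choice of the members leads by its construction.

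In NEO, 39 members were called higher on day 1 and 0 lower, where the background was 7.32% of genes rising and 7.33% falling, 14.7% in either direction. The 39 are 19.2% of the members. The median log2 fold change was 2.02 over all members and -0.02 over all genes tested, and 189 members had a positive value. Without NEO day 0 replicate 1 the count was also 39 and the median 2.67. Leaving out NEO day 0 replicate 2 gave 8 (3.94%, against 3.84% of genes rising), a share near that of all genes, and leaving out replicate 3 gave 22 (10.8%, against 6.97%). The fits lacking NEO day 1 replicate 1 or 2 gave 9 (4.43%, against 4.08%) and 18 (8.87%, against 6.77%). The count was 25 without PBS day 0 replicate 1 or 2 or PBS day 1 replicate 1 (12.3%, against 5.6%, 5.44% and 5.65%). It was 24 without PBS day 0 replicate 3 (11.8%, against 5.46%). Without NEO day 1 replicate 3 it was 88 (43.3%, against 7.08%), a gain to which the choice of the members leads as well. With the NEO libraries fitted alone, where the spread comes from NEO only, it was 1 (0.495%, against 0.916%). By DESeq2 it was 73 (36%, against 11.6%). Rises were called in both arms for 27 members, in PBS only for 6 and in NEO only for 12, and in neither for 158. Among all genes tested 739 rose in both arms, 786 in PBS only and 172 in NEO only, and 8905 had no call. Members called in 1 arm only are not shown to differ between the arms.

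**Figure D5:**
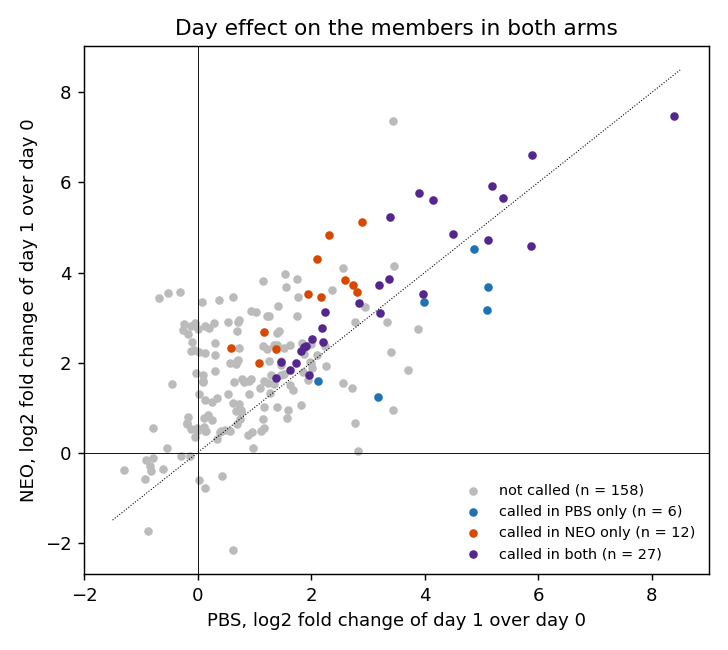
Each point is 1 of the 203 members, placed by its log2 fold change of day 1 over day 0 in PBS (horizontal axis) and in NEO (vertical axis), with colour for the arms in which edgeR called it and a dotted line of equal change. The 27 members called in both arms (purple) run up to 8.39 in PBS and 7.48 in NEO, and no called member lies below 0 on either axis.

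Among the called members the largest mean fold change over the arms was that of ENSRNOG00000009919 and ENSRNOG00000057443, both near absence on day 0. They reached the mean level for membership through the day 1 libraries. Their calls and fold changes are therefore a description that supports no direction, and no p-value is given. ENSRNOG00000009919 had 3, 3 and 5 counts in PBS day 0 and 1, 3 and 7 in NEO day 0. On day 1 it was at 65.4, 194 and 10.5 CPM in PBS and 81.9, 93.2 and 8.40 CPM in NEO, so each day 1 library exceeded all of day 0. ENSRNOG00000057443 had 7, 5 and 6 counts in PBS day 0 and 0, 5 and 2 in NEO day 0. On day 1 it was at 37.8, 37.1 and 2.52 CPM in PBS and 37.9, 21.2 and 4.003 CPM in NEO. Its libraries numbered 3 were thus far below the others and still above day 0. The fitted log2 fold change was 8.39 in PBS and 7.48 in NEO for ENSRNOG00000009919, and 5.89 and 6.60 for ENSRNOG00000057443. By limma voom with quality weights neither was called in either arm, and with the NEO libraries fitted alone ENSRNOG00000057443 was not called in NEO.

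The 2 members with the largest smaller drop were not called for the day effect. ENSRNOG00000043451 had a fitted log2 fold change of 2.95 ± 1.80 (SE) in PBS and 3.24 ± 1.84 in NEO. For ENSRNOG00000030021 the values were 0.21 ± 1.12 (SE) in PBS and 2.77 ± 1.22 in NEO. The sign of its PBS value turned in some alternatives.

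NEO was compared with PBS on day 0, in libraries that entered the choice of members only through the mean level. The median level of the members was 14.2, 11.1 and 14.5 CPM in the PBS libraries and 13.5, 5.87 and 7.29 CPM in the NEO libraries. NEO libraries 2 and 3 were thus lower than all PBS libraries and library 1 was within their range. The median of all 8379 genes lay between 49.5 and 53.3 CPM in these 6 libraries. The 3 NEO libraries all lay below the 3 PBS libraries for 56 members (background 7.84%) and all above for 0 (background 5.93%). Replicates 2 and 3 of NEO lay below all PBS libraries for 128 members (background 15%) and above them for 0 (background 9.24%).

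No member passed the main test of that difference. By edgeR 0 members and 0 genes in all were called (background 0%), with an unadjusted p under 0.05 for 4 members (background 6.68%) and a smallest adjusted p among members of 0.716. The error of this fit includes the day 1 spread for which the members were chosen. The next fits, with less of it, also called 0 members, but more members had an unadjusted p under 0.05. They were 45 of 200 with only the day 0 libraries (22.5%, against 5.30% of genes) and 59 without both day 1 libraries numbered 3 (29.1%, against 8.07%). With a block by number within each day they were 78 (38.4%, against 9.06%). Whether the numbers pair day 0 libraries is not given by the labels and was not shown by the data. DESeq2 and limma voom also called 0 members. Lacking NEO day 0 replicate 1 and both day 1 libraries numbered 3, a fit chosen after seeing the data called 1 member, lower in NEO. It called 6 genes in all, and 110 members (54.2%, against 8.21% of genes) had an unadjusted p under 0.05. The median log2 difference of members, NEO minus PBS, was -0.36 with all libraries and -0.84 without NEO day 0 replicate 1, where 0 members were called as well, and -0.24 without NEO day 0 replicate 2. In the fit of all libraries the median standard error of a member was 0.99.

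On day 1 the wide spread within each group was set by the choice of the members, which limits what this comparison can show. EdgeR called 0 members and 0 genes in all for NEO against PBS (background 0%), with an unadjusted p under 0.05 for 0 members (background 4.15%). DESeq2 called 0 members and limma voom 0. The median log2 difference of members was 0.32, with 165 members higher in NEO, and it was -0.16 without NEO day 1 replicate 2, -0.11 without PBS day 1 replicate 3 and 0.78 without NEO day 1 replicate 3. The main fit does not use the replicate number. Fitted with the replicate number as a block within each day, the median was 0.22 and 0 members were called. In that fit 16 members had an unadjusted p under 0.05 (7.88%, against 6.66% of genes).

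The difference of the day effects between the arms was called for 0 members and 0 genes (edgeR, background 0%), with an unadjusted p under 0.05 for 0 members (background 4.88%). The error of this fit includes the day 1 spread for which the members were chosen, so these 0 members do not show equal day effects. Without both day 1 libraries numbered 3, 59 members had an unadjusted p under 0.05 (29.1%, against 8.89% of genes). With a block by number within each day 74 did (36.5%, against 7.83%). Both fits called 0 members. DESeq2 and limma voom called 0 members. The median log2 difference of members, NEO minus PBS, was 0.58, with a median standard error of 1.36, and 157 members had a positive value. With 1 library left out that median ran from 0.16, lacking PBS day 1 replicate 3, to 1.23, lacking NEO day 0 replicate 1. In a fit chosen after seeing the data, which lacked NEO day 0 replicate 1 and both libraries 3 of day 1, 4 members and 6 genes were called, all with a positive difference. There 126 members had an unadjusted p under 0.05 (62.1%, against 16.4% of genes).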

How the data were processed

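For each of the 12 libraries the authors deposited raw read counts by Ensembl gene identifier. The submitters' processing notes name STAR 2.5.2a, featureCounts 1.5.0-p1, bcl2fastq 2.17.1.14 and the genome build rn6. What annotation release, strand setting and rule for multiply mapped reads were used is not given in the sources used here, so overlapping, antisense and near-identical genes can share reads.

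CPM values use library totals, and drops use log2(CPM + 1). Differences between groups were fitted in R 4.3.3 with edgeR 4.0.16 (filterByExpr, TMM, glmQLFit and glmQLFTest, 1 mean per group, 12 libraries) with calls where the p adjusted by Benjamini-Hochberg over 12449 genes was under 0.05. Standard errors are the log2 fold change over the square root of F. The code was tested on simulated data. Alternatives used limma 3.58.1 (voom with quality weights), DESeq2 1.42.0, other scalings, filters and library sets.

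The members and lists were chosen with earlier results of these data known. The marker and pathway lists, the promoter motifs and the sequences were not used, as no identifier could be named. Examples are the 2 called members with the largest mean day effect and the 2 with the largest smaller drop. On day 1, deviations from group means of same-numbered NEO and PBS libraries correlated at 0.494, 0.628 and 0.746 across genes tested, and at 0.434, 0.564 and 0.684 without the members. The numbers were therefore taken to pair day 1 libraries, by the data and not by the labels. On day 0 the correlations were -0.0658, 0.0902 and 0.0982, and across days both signs occurred.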

Additional observations from a re-analysis of the deposited data

How the results depend on the processing

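The number of members was 202 with TMM-scaled CPM, 205 with a pseudocount of 0.5, 234 at a drop of 0.8 and 160 at 1.5, and it was 310 with a minimum mean of 5 CPM and 127 with 20. With 1 library left out, members called for the day effect numbered 10 to 47 in PBS and 8 to 88 in NEO, genes called 1954 to 4468 and 854 to 2207, and genes called for NEO against PBS on day 0 between 0 and 3. The day effect gave 58 members in PBS and 1 in NEO with only the groups compared (5186 and 125 genes). Without both day 1 libraries numbered 3 it gave 91 and 135 members (2706 and 1504 genes). These were 44.8% and 66.5% of the members, all up, against 11% and 8.26% of genes rising. The choice of the members leads to these gains. The day effect gave 73 members in NEO by DESeq2 (2526 genes) and 60 without a low-count filter (1447 genes), and 5657 and 2805 genes by limma voom. The 73 and 60, all up, were 36% and 29.6% of the members, against 11.6% and 3.49% of genes rising. Without the filter 24208 genes were tested. With NEO day 0 replicate 1 and both day 1 libraries numbered 3 left out, 153 members and 4878 genes were called in PBS, 186 and 2996 in NEO, 1 and 6 for NEO against PBS on day 0, and 4 and 6 for the difference of the day effects. That fit was chosen after seeing the data. In it 74.4% of members rose in PBS (19.5% of genes) and 91.1% in NEO (14.3%), to which the choice of the members leads as well. For NEO against PBS DESeq2 called 53 genes on day 0 and 9 on day 1, and edgeR without a low-count filter 13 on day 0.

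With the replicate number as a block over all libraries, the day effect was called for 23 members in PBS, 1 of them lower on day 1 (3395 genes). In NEO it was called for 29 members (1868 genes). Called up were 10.8% of members in PBS, against 13.2% of genes, and 14.3% in NEO, against 7.64%. The labels do not say whether the numbers pair the days. The block within each day changed no call between the arms, with 0 members and 0 genes on either day. In NEO day 0, replicate 1 moved the counts of members at least 1 lower or higher in library 3 from 5 and 12 without it to 38 and 29 with it. The PBS value of ENSRNOG00000030021 turned to -0.25 by limma voom, -0.41 with that block over all libraries and -0.52 without PBS day 1 replicate 2, with 0.77 as the highest value when 1 library was left out. The choice of the members leads to the gains without the day 1 libraries numbered 3. The cause of the other changes was not tested. The depth of the libraries numbered 3 limits members near 10 counts there, and 3 libraries per group limit the precision of every difference.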
